A study of Mus musculus with 16 samples.

Results

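The genes described here are 9 of the NF-kB pathway: Nfkbia and Nfkbie, which encode the inhibitors IkB-alpha and IkB-epsilon; Nfkb1, Nfkb2 and Relb, which encode transcription factor subunits; Tnfaip3 and Birc3, which encode the ubiquitin enzymes A20 and cIAP2; and Tnfrsf1a and Tnfrsf1b, which encode the TNF receptors TNFR1 and TNFR2. They were taken by symbol from the table of raw counts, were each found once among its 37003 genes, and all 9 passed the filter on low counts that left 31085 genes. The data were bulk RNA sequencing of mouse brain endothelial cells (bECs) sorted alive by CD31 staining without CD45, 72 hours after sham surgery or after middle cerebral artery occlusion (MCAo), in which the artery was closed for 30 minutes and then reopened. There were 16 libraries, 4 for each combination of genotype (CTRL or YT-iKO) and surgery (sham or MCAo). YT-iKO mice carried Pdgfb-iCreER-eGFP with Yap fl/fl and Taz fl/fl, so that Cre recombinase was driven by the Pdgfb promoter; CTRL mice were littermates that had both floxed genes too but not the Cre transgene. Adult mice of both sexes entered the study, all of them received tamoxifen, and each library was a pool of 2 to 4 mice, so the pool is the replicate and the spread between mice within a pool was not measured.

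NF-kB dimers are held in the cytoplasm of resting cells by IkB proteins. Binding of TNF to its receptors recruits ubiquitin ligases and the IkB kinase, IkB is degraded, and the freed dimers enter the nucleus, where they switch on adhesion molecules and cytokines together with genes for their own brakes, among them IkB-alpha and A20. In brain endothelium this pathway is known for the display of leukocyte adhesion molecules after injury. The comparisons below ask whether transcripts of the receptors and of the feedback genes differed after MCAo, and whether loss of YAP and TAZ, the co-activators of the Hippo pathway, moved them.

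Several of these genes are textbook NF-kB targets, and their promoters were therefore read for the kB consensus, the binding motif of NF-kB dimers, which is 10 bases long and was searched on both strands. It is given by its name because several of its positions take more than one base. RefSeq promoters of build GRCm38.p6, from 250 bases before to 50 bases after the start of transcription, were matched by symbol for 7 of the 9 genes; Nfkb1 and Relb had no entry. The motif was found in 6 of 10 promoters of these genes, which belong to 4 genes (Nfkbia, Nfkbie, Tnfaip3 and Nfkb2), and in 4.51% of the 32851 promoters of all genes. For these 4 genes the entry that lies furthest upstream is shown, followed by the promoters of both receptors, whose windows held no match. In the main test by edgeR the receptors had the largest log2 fold changes of the 9 genes after MCAo. Capitals mark each match, 5′ to 3′ on the gene's strand; in Nfkb2 neighbouring matches overlap and merge.
Nfkbia promoter, chr12:55492598-55492897, minus strand: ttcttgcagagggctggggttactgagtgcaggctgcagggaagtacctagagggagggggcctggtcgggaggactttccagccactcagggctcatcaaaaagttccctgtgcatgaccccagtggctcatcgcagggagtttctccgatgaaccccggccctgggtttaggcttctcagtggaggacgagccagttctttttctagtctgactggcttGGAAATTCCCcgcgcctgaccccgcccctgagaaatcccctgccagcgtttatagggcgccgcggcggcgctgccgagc
Nfkbie promoter, chr17:45555450-45555749, plus strand: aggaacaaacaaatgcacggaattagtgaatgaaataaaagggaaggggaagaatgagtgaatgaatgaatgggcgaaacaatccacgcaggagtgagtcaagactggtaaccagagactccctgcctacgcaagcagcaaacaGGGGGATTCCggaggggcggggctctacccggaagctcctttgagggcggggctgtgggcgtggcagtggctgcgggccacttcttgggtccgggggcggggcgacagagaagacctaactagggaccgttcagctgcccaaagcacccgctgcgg
Tnfaip3 promoter, chr10:19015361-19015660, minus strand: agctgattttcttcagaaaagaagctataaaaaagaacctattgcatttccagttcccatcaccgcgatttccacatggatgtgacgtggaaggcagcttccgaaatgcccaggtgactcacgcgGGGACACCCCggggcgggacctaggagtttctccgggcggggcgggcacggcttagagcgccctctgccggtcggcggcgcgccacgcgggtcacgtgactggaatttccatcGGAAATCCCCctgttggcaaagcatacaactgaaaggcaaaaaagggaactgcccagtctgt
Nfkb2 promoter, chr19:46304487-46304786, plus strand: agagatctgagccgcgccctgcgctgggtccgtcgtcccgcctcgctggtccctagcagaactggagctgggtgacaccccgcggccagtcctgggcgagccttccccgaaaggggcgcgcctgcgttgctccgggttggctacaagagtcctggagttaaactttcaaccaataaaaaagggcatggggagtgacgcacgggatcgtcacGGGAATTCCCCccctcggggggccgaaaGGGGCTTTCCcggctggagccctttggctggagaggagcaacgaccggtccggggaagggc
Tnfrsf1a promoter, chr6:125349473-125349772, plus strand: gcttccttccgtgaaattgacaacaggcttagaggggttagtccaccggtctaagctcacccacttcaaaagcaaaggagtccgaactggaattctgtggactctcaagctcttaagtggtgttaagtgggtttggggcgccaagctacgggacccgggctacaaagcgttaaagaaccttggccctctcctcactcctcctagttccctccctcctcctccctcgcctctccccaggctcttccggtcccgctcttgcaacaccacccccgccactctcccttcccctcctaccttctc
Tnfrsf1b promoter, chr4:145246821-145247120, minus strand: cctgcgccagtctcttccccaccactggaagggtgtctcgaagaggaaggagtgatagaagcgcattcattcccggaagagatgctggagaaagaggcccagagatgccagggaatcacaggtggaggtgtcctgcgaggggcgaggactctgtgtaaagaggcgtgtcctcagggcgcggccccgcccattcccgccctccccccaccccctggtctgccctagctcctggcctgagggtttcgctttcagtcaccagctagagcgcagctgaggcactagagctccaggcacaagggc
A match is a description of these letters only. Nfkbia and Nfkbie held 1 match each and Tnfaip3 held 2; the first Nfkb2 promoter held 4 counted over both strands, of which a pair is the same 10 bases read on either strand. The other entries of Nfkb2 held 2 and 1; their windows overlap and the single match of the last is the same 10 bases as a match of the other, so the 6 promoters include 1 site that was counted in both. Nfkb2 had 5 distinct sites on the genome in all. There was none in the second Tnfaip3 entry or in the Birc3 window. Binding of NF-kB was not measured in these samples.

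Raw counts summed to between 11418262 and 23074547 per library. Yap1 and Wwtr1 (the gene of TAZ) were lower in YT-iKO, at 49.3 ± 9.70 against 112 ± 0.511 CPM and 72.1 ± 20.9 against 265 ± 9.66 CPM after sham (SD, n = 4; adjusted p of 0.0371 and 0.00381, edgeR), and after MCAo at 47.2 ± 11.6 against 106 ± 26.8 CPM and 89.1 ± 32.9 against 329 ± 96.8 CPM (adjusted p of 0.0478 and 0.00356, edgeR). The 9 endothelial markers summed to 9396 to 20171 CPM in every library. The 9 markers of microglia and macrophages summed to 6.49 to 28.1 CPM and the 8 of monocytes and neutrophils to 1.25 to 19.1 CPM. Of these 8, S100a8, S100a9 and Retnlg each had 0 counts in at least 1 library and at most 26, 13 and 20. The others had counts in every library, up to 83 for Ccr2 and 74 for Csf3r. Pericyte and smooth muscle markers were present, at 432 to 1230 CPM summed over 8 genes. The libraries differed in counts on 1575 olfactory, vomeronasal and taste receptor genes, from 0.0413 CPM per kb of exon in YT-iKO MCAo replicate 4 to 0.423 in YT-iKO sham replicate 3. TMM scaling factors from all tested genes followed these counts, from 0.743 to 1.40, whereas factors computed only over genes averaging 10 CPM or more lay between 0.938 and 1.04. Values are therefore given on both scales, called here the scale of all tested genes and the scale of abundant genes. The change of scale moved the median log2 fold change of all genes from 0.07 to 0.21 for MCAo in CTRL and from 0.11 to 0.30 for genotype after sham.

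Within the sham libraries of CTRL, the order of levels per kb of exon was led by Nfkbia at 148 ± 8.05 CPM per kb (SD, n = 4). Tnfrsf1a followed at 22.0 ± 1.43, Tnfrsf1b at 14.3 ± 0.772 and Nfkb1 at 13.5 ± 0.449. Birc3 (9.23 ± 0.680) and Nfkb2 (9.22 ± 0.808) could not be told apart, nor could Relb (6.57 ± 0.862) and Tnfaip3 (6.44 ± 0.509) or Tnfrsf1b and Nfkb1, because the libraries of those neighbours overlapped. Nfkbie was lowest, at 1.94 ± 0.267 CPM per kb, with 76 to 120 counts per library. In all 4 groups Nfkbia was first without overlap, Tnfrsf1a second and Nfkbie last without overlap, and the genes between them had overlapping neighbours in most places. The plot of levels per exon length shows this order.

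**Figure D1:**
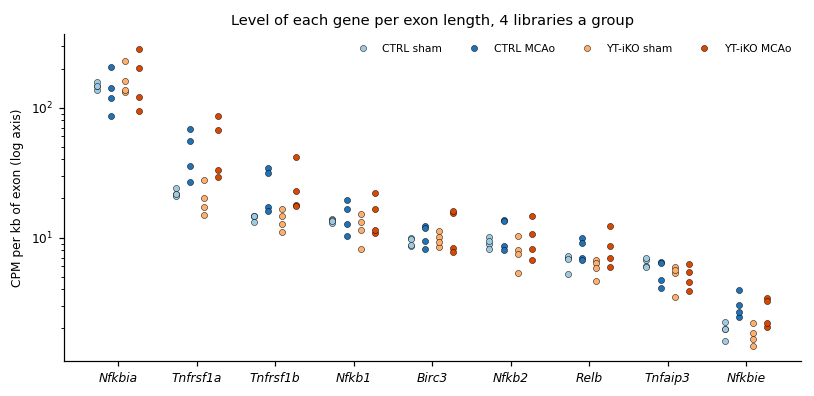
Level of each of the 9 genes in CPM per kb of exon (vertical axis, log scale), on the scale of all tested genes; each point is 1 library and colours mark the 4 groups. Nfkbia lay highest and Nfkbie lowest in every group, and both TNF receptors stood higher in the MCAo groups than in the sham groups.

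Tnfrsf1a (ENSMUSG00000030341, chromosome 6, 125349362 to 125362484, plus strand) encodes the TNF receptor with a death domain, which is found on most cell types. In CTRL sham replicates 1 to 4 it was at 55.9, 53.9, 56.0 and 62.4 CPM, and in CTRL MCAo replicates 1 to 4 at 179, 91.7, 69.2 and 144 CPM. In YT-iKO sham replicates it was at 72.0, 44.7, 38.7 and 52.0 CPM, and in YT-iKO MCAo replicates at 173, 75.3, 85.1 and 223 CPM. All MCAo libraries of a genotype lay above all its sham libraries, and within both MCAo groups replicates 1 and 4 were high and replicates 2 and 3 low. In YT-iKO the gap was narrow, from 72.0 CPM in sham replicate 1 to 75.3 CPM in MCAo replicate 2. The log2 fold change was 1.42 ± 0.33 (SE) in YT-iKO, a 2.68-fold difference with an adjusted p of 0.0876 by edgeR, so Tnfrsf1a rose after MCAo in YT-iKO at the threshold of 0.1. Over all settings run this log2 fold change lay between 0.69 (limma-voom) and 1.71 (without 5 libraries of high TMM factor, described below). In CTRL the log2 fold change was 1.08 ± 0.32 with an adjusted p of 0.466, which did not pass. The call in YT-iKO held when YT-iKO MCAo replicate 2 or 3, CTRL MCAo replicate 1 or 3, or replicate 1 of YT-iKO sham was left out, and was lost with any of the other 11 of 16 libraries (adjusted p between 0.0106 and 0.392 over all 16). In CTRL the gene was called when YT-iKO MCAo replicate 4 was left out (adjusted p of 0.0721) and with none of the other 15.

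Tnfrsf1b (ENSMUSG00000028599, chromosome 4, 145213463 to 145246870, minus strand) encodes the second TNF receptor, which lacks a death domain and binds TRAF2 together with the cIAP ligases. Its values were 50.1, 55.8, 56.4 and 55.6 CPM in CTRL sham, and 131, 66.1, 61.4 and 119.8 CPM in CTRL MCAo. They were 63.7, 48.7, 42.5 and 55.9 CPM in YT-iKO sham, and 86.5, 68.5, 66.8 and 158 CPM in YT-iKO MCAo. Here too the groups did not overlap in either genotype, although the gap between the highest sham and the lowest MCAo library was narrow in YT-iKO. The log2 fold changes were 0.80 ± 0.28 in CTRL and 0.85 ± 0.28 in YT-iKO, and neither passed the threshold by edgeR (adjusted p of 0.820 and 0.608; unadjusted p of 0.0092 and 0.0059).

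Both receptors rose, with factors from abundant genes, after MCAo in both genotypes. Tnfrsf1a had a log2 fold change of 1.12 ± 0.17 in CTRL (adjusted p of 0.00243) and 1.30 ± 0.17 in YT-iKO (adjusted p of 0.000677), and Tnfrsf1b one of 0.84 ± 0.14 (adjusted p of 0.00364) and 0.75 ± 0.14 (adjusted p of 0.00815), all by edgeR. The standard errors were smaller than on the scale of all tested genes. On this scale Tnfrsf1a was at 50.4 to 59.6 CPM in CTRL sham and 87.2 to 139 CPM in CTRL MCAo, and at 41.4 to 64.9 CPM in YT-iKO sham and 102 to 163 CPM in YT-iKO MCAo. The plot of the receptors shows these values, with no overlap of MCAo and sham libraries in either genotype.

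**Figure D2:**
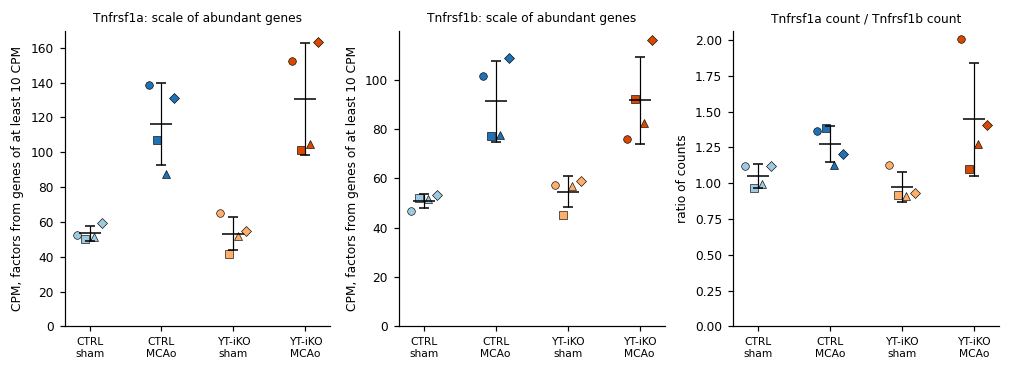
Left and middle: Tnfrsf1a and Tnfrsf1b in CPM on the scale of abundant genes, by group; right: the count of Tnfrsf1a divided by that of Tnfrsf1b in the same library. Points are libraries with a symbol per replicate number, bars are mean and SD (n = 4); MCAo libraries lie above sham libraries in both receptor panels, and the ratio lies above the CTRL sham libraries in all CTRL MCAo libraries.

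A ratio of 2 counts of the same library needs no scaling factor. The count of Tnfrsf1a relative to that of each of the 7 feedback genes did not overlap between MCAo and sham for 5 of these 7 genes in CTRL and for 6 in YT-iKO, and the log2 difference of mean log ratios ran from 0.37 to 1.26 in CTRL and from 0.72 to 1.33 in YT-iKO. For Tnfrsf1b the counts were 5 and 4 of 7, with log2 differences of 0.09 to 0.99 and 0.18 to 0.79. Among 11503 other genes averaging 5 CPM or more, the share whose ratio to the same gene lay wholly higher after MCAo ran from 0.417% (to Nfkbie) to 11.8% (to Tnfaip3) in CTRL, and from 0.539% (to Nfkbie) to 2.61% (to Tnfaip3) in YT-iKO. Both receptors had already been seen not to overlap in CPM, and the 7 ratios of a receptor share its counts. The ratio to Nfkbie overlapped for both receptors in both genotypes; relative to Nfkbia, Tnfrsf1a stood at 0.241 in CTRL sham and 0.538 in CTRL MCAo, and at 0.196 and 0.500 in YT-iKO (means of 4). Between the receptors themselves, the ratio of Tnfrsf1a to Tnfrsf1b was 1.05 ± 0.0815 in CTRL sham and 1.27 ± 0.127 in CTRL MCAo (exact two-sided permutation p of 0.0286, the smallest that 4 against 4 libraries can give), and 0.972 ± 0.106 and 1.45 ± 0.393 in YT-iKO (exact permutation p of 0.0571). YT-iKO MCAo replicate 1 had the highest ratio, at 2.01. These ratios were chosen after the values were seen.

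Nfkbia (ENSMUSG00000021025, chromosome 12, 55489410 to 55492647, minus strand), the gene of the inhibitor that NF-kB resynthesises first, did not show a difference. It was at 222, 237, 254 and 238 CPM in CTRL sham, and at 331, 189.8, 139.6 and 228 CPM in CTRL MCAo. In YT-iKO it was at 371, 260.4, 214 and 219 CPM after sham, and at 453, 153, 194 and 325 CPM after MCAo. MCAo libraries lay both above and below the sham libraries. The log2 fold change was −0.10 in CTRL (95% interval −0.73 to 0.54) and 0.08 in YT-iKO (−0.56 to 0.71), neither of which passed (adjusted p of 1.00 in both, edgeR).

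Nfkbie (ENSMUSG00000023947, chromosome 17, 45555703 to 45563169, plus strand) encodes a second inhibitor, with a slower feedback role than IkB-alpha. Its values were 4.85, 6.84, 5.98 and 5.98 CPM in CTRL sham, and 11.9, 7.44, 8.14 and 9.19 CPM in CTRL MCAo, without overlap. They were 5.59, 4.44, 6.67 and 5.01 CPM in YT-iKO sham, and 10.4, 6.20, 6.73 and 9.85 CPM in YT-iKO MCAo, where MCAo replicate 2 lay below sham replicate 3. The log2 fold changes of 0.63 ± 0.24 and 0.61 ± 0.24 did not pass after adjustment (adjusted p of 1.00 in both, edgeR; unadjusted p of 0.0142 and 0.0170). Counts as even along exons as those on the receptor genes would make up a median of 10.8% of Nfkbie's counts, and up to 20.3% in 1 library, against at most 12.1% in any library for the other 8 genes. The plot against these counts sets both genes side by side.

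**Figure D3:**
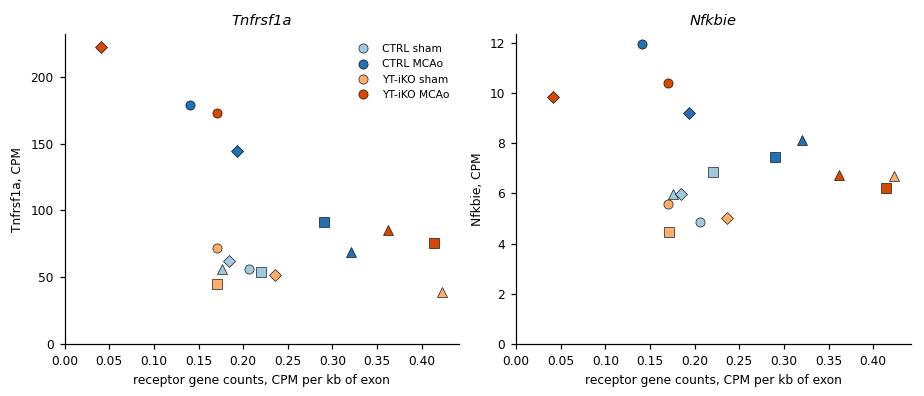
Tnfrsf1a (left) and Nfkbie (right) in CPM on the scale of all tested genes, against counts on olfactory, vomeronasal and taste receptor genes in CPM per kb of exon; each point is 1 library, colours mark groups and symbols replicate numbers as in the other plots. Within the MCAo groups the libraries with the fewest receptor gene counts had the highest Tnfrsf1a, up to 223 CPM at 0.0413 CPM per kb, while CTRL sham libraries lay close together.

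Of the subunit genes, Nfkb1 (ENSMUSG00000028163, chromosome 3, 135584655 to 135691547, minus strand) encodes p105, the precursor of p50. It was at 169, 156, 166 and 163 CPM in CTRL sham, and at 234, 153, 124 and 199 CPM in CTRL MCAo. In YT-iKO it was at 183, 158, 98.7 and 137 CPM after sham, and at 199.8, 131, 138 and 264 CPM after MCAo. The groups overlapped in both genotypes on the scale of all tested genes, with log2 fold changes of 0.12 ± 0.26 and 0.34 ± 0.26. On the scale of abundant genes they overlapped in CTRL but not in YT-iKO. With factors from abundant genes YT-iKO had a log2 fold change of 0.28 ± 0.08 with an adjusted p of 0.0942 (edgeR), while that in CTRL was 0.19 ± 0.08 with an adjusted p of 0.442.

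Nfkb2 (ENSMUSG00000025225, chromosome 19, 46304320 to 46312385, plus strand) encodes p100, the precursor of p52 in the non-canonical arm of the pathway. It was at 41.2, 46.5, 37.8 and 43.5 CPM in CTRL sham, and at 62.9, 39.7, 36.8 and 61.8 CPM in CTRL MCAo. In YT-iKO it was at 47.4, 36.9, 24.4 and 34.3 CPM after sham, and at 48.7, 31.0, 37.2 and 67.6 CPM after MCAo. The groups overlapped on the scale of all tested genes, with log2 fold changes of 0.25 ± 0.25 and 0.37 ± 0.25 that did not pass. On the scale of abundant genes they overlapped in YT-iKO but not in CTRL (exact permutation p of 0.0286, which any gene without overlap gets). Of genes averaging 5 CPM or more, 9.16% lay wholly higher in CTRL on that scale. There the log2 fold change in CTRL was 0.32 ± 0.10, which did not pass (adjusted p of 0.172, edgeR). Its exons share 531 bases (11.6%) with the non-coding gene AC114539.1 and 299 bases (6.52%) with Psd both on the opposite strand; whether counting used strand is not given in the sources used here.

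Relb (ENSMUSG00000002983, chromosome 7, 19606217 to 19629438, minus strand) encodes the partner of p52. It was at 20.6, 27.1, 27.9 and 26.5 CPM in CTRL sham, and at 38.7, 27.2, 26.1 and 35.4 CPM in CTRL MCAo. In YT-iKO it was at 26.2, 24.7, 17.9 and 22.7 CPM after sham, and at 33.8, 27.0, 23.1 and 47.7 CPM after MCAo. Groups overlapped on this scale, with log2 fold changes of 0.32 ± 0.22 and 0.52 ± 0.22. On the scale of abundant genes they did not, at 19.2 to 25.5 against 30.1 to 32.9 CPM in CTRL and 22.9 to 24.0 against 28.4 to 36.4 CPM in YT-iKO, and Relb rose in both genotypes (log2 fold changes of 0.41 ± 0.10 and 0.46 ± 0.10; adjusted p of 0.0531 and 0.0305, edgeR). Relb was not called by DESeq2, with log2 fold changes of 0.34 in CTRL (adjusted p of 0.994) and 0.50 in YT-iKO (adjusted p of 0.734). By limma-voom they were smaller, at 0.15 and 0.0438 (adjusted p of 0.430 and 0.854).

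Tnfaip3 (ENSMUSG00000019850, chromosome 10, 19000910 to 19015657, minus strand) encodes A20, which edits ubiquitin chains at the TNF receptor complex and so ends the signal. It was at 48.5, 50.6, 43.9 and 42.9 CPM in CTRL sham, and at 46.9, 29.5, 34.1 and 46.1 CPM in CTRL MCAo. In YT-iKO it was at 42.6, 38.7, 25.3 and 41.0 CPM after sham, and at 39.1, 28.1, 33.0 and 45.1 CPM after MCAo. Groups overlapped on both scales, and this was the only one of the 9 genes with a negative log2 fold change in both genotypes on the scale of all tested genes, at −0.25 ± 0.21 and −0.02 ± 0.21, neither of which passed. Nfkbia was negative in both as well with factors from abundant genes. limma-voom with sample quality weights called Tnfaip3 lower in CTRL, with an adjusted p of 0.0224.

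Birc3 (ENSMUSG00000032000, chromosome 9, 7848699 to 7873186, minus strand) encodes a ubiquitin ligase of the TNF receptor complex. It was at 42.9, 49.3, 49.0 and 43.7 CPM in CTRL sham, and at 61.9, 47.1, 41.2 and 58.9 CPM in CTRL MCAo. In YT-iKO it was at 50.6, 55.9, 42.4 and 46.2 CPM after sham, and at 77.7, 41.8, 38.9 and 80.8 CPM after MCAo. The groups overlapped on the scale of all tested genes, with log2 fold changes of 0.18 ± 0.23 and 0.29 ± 0.23 that did not pass. On the scale of abundant genes Birc3 overlapped in YT-iKO but not in CTRL (exact permutation p of 0.0286, which any gene without overlap gets). Of genes averaging 5 CPM or more, 9.16% lay wholly higher in CTRL on that scale. The log2 fold change of Birc3 in CTRL was then 0.27 ± 0.10, which did not pass (adjusted p of 0.322, edgeR). Birc3 lies 58.8 kb from the floxed Yap1 gene on the same chromosome, and its values between genotypes are therefore given with those of Tnfaip3 and Nfkbia below.

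**Figure D4:**
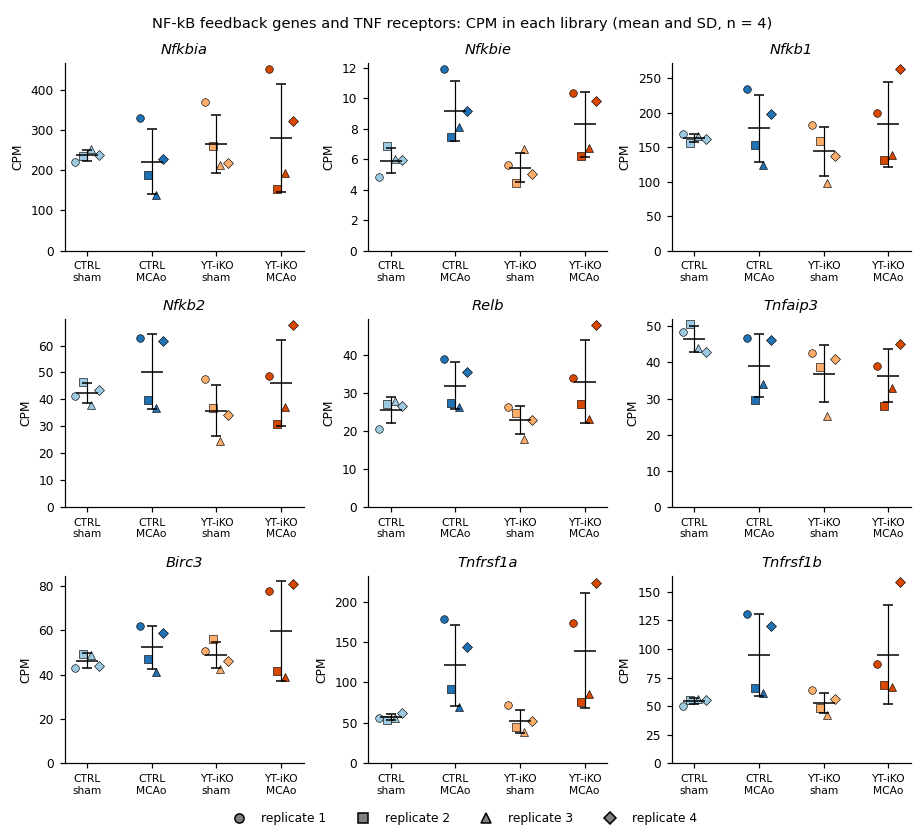
CPM on the scale of all tested genes in each library for the 9 genes; the symbol gives the replicate number, colours the group, and bars mean and SD (n = 4). MCAo libraries of Tnfrsf1a and Tnfrsf1b lie above the sham libraries in both genotypes, and replicates 1 and 4 of the MCAo groups lie above replicates 2 and 3 for all 9 genes in CTRL and for all 9 in YT-iKO.

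Counted over the 9 genes, the main test by edgeR called 0 after MCAo in CTRL, where 0.216% of all tested genes were called, and 1 in YT-iKO, where 0.318% were called. At an unadjusted p under 0.05 the counts were 3 in CTRL (Nfkbie and both receptors; 3.5% of all genes) and 4 in YT-iKO (the same with Relb; 3.01% of all genes), all higher. DESeq2 called Tnfrsf1a alone in each genotype, where it called 1.11% of its genes in CTRL and 1.25% in YT-iKO. limma-voom called 3 higher (Nfkbie and both receptors) and 1 lower in CTRL, against 24.2% of all genes, and Tnfrsf1a alone in YT-iKO, against 18.1%. On the scale of abundant genes edgeR called 3 in CTRL (both receptors and Relb; 1.78% of all genes) and 4 in YT-iKO (the same with Nfkb1; 1.72% of all genes), all higher. Without the 5 libraries whose TMM factor exceeded 1.1, a fit added after the values were seen, 4 were called in CTRL (Nfkbie, Nfkb2 and both receptors; 3.05% of all genes) and 6 in YT-iKO (Nfkbie, Nfkb1, Relb, Birc3 and both receptors; 6.23% of all genes). That fit leaves only replicates 1 and 4 of each MCAo group, which lay above replicates 2 and 3 for all 9 genes, so its counts are a description and nothing is read from them. Tnfrsf1a was called in YT-iKO by edgeR on both scales, DESeq2 and limma-voom, but not by edgeR in the fit of only the 2 groups compared (log2 fold change 1.31, adjusted p of 0.304). Such fits called 0 of the 9 in YT-iKO, where 0.0624% of all genes were called, and 3 in CTRL (Nfkbie and both receptors), where 2.52% were.

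MCAo libraries lay wholly above sham libraries for 3 of the 9 in CTRL, against 2.24% of all tested genes and 2.11% of those averaging 5 CPM or more, and for 2 of the 9 in YT-iKO, against 0.785% and 1.35%. On the scale of abundant genes these numbers were 6 of 9 in CTRL, against 4.69% and 9.16%, and 4 of 9 in YT-iKO, against 1.87% and 4.51%. In each such case the exact permutation p of a single gene was 0.0286, which follows from the lack of overlap and adds nothing to it. The genes common to both genotypes and both scales were the 2 receptors. The plot of log2 fold changes shows both scales.

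**Figure D5:**
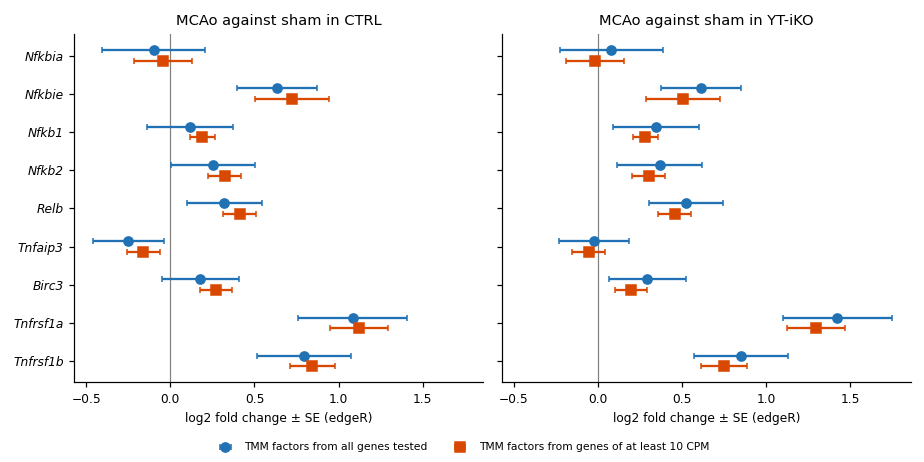
log2 fold change of MCAo against sham (edgeR, with SE) in CTRL (left) and YT-iKO (right) for the 9 genes, on the scale of all tested genes (circles) and of abundant genes (squares). Both receptors lie furthest to the right, from 0.75 to 1.42, and the squares have shorter error bars than the circles.

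None of the 9 genes was called between genotypes. After sham the log2 fold changes of YT-iKO against CTRL ran from −0.33 ± 0.21 for Tnfaip3 to 0.16 ± 0.31 for Nfkbia, with adjusted p of at least 0.990 (edgeR). After MCAo they ran from −0.14 ± 0.23 for Nfkbie to 0.34 ± 0.31 for Nfkbia, with adjusted p of 1.00. After sham none was called by edgeR (0.0965% of all genes called), edgeR on the scale of abundant genes (0.37%), DESeq2 (0.42%) or limma-voom (0.46%). None had an unadjusted p under 0.05 by edgeR on the scale of all tested genes (2.16% of all genes). After MCAo none was called by the same tools (0.0708%, 0.582%, 0.461% and 0.827% of all genes). Again none had an unadjusted p under 0.05 by edgeR on the scale of all tested genes (1.49%). Tnfaip3 was the only one whose groups did not overlap, after sham, where all YT-iKO libraries (25.3 to 42.6 CPM) lay below all CTRL libraries (42.9 to 50.6 CPM), with an exact two-sided permutation p of 0.0286, against 2.22% of all genes lower without overlap. The gap was under 1 CPM, and on the scale of abundant genes the groups overlapped, at 33.9 to 43.1 against 40.2 to 47.3 CPM (exact permutation p of 0.114). Birc3, next to Yap1, differed between genotypes by 0.08 ± 0.23 after sham and 0.19 ± 0.23 after MCAo on the log2 scale. With factors from abundant genes it differed by 0.23 ± 0.10 (adjusted p of 0.810, edgeR) and 0.16 ± 0.10, and was not called. After sham Tnfaip3 was then at −0.20 ± 0.10 and Nfkbia at 0.30 ± 0.17 (adjusted p of 0.810 each, edgeR).

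The difference between the genotypes in the MCAo response was tested as an interaction. It ran from −0.02 ± 0.34 for Nfkbie to 0.34 ± 0.45 for Tnfrsf1a, whose 95% interval reached from −0.60 to 1.28. None of the 9 genes and 0% of all genes were called by edgeR, DESeq2 or limma-voom, and none of the 9 had an unadjusted p under 0.05 by edgeR, against 0.373% of all genes. Thus the call of Tnfrsf1a in YT-iKO and its absence in CTRL were not shown to differ; on the scale of abundant genes the interaction was 0.17 ± 0.24.

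Other genes of the pathway were read from 6 lists with 72 genes in all, and all 72 were tested. The lists were chosen with earlier results of these data known, so their directions are a description. Of the 31085 genes they are set beside, 11512 averaged 5 CPM or more. Of 15 NF-kB target genes, edgeR called 2 higher in CTRL (Sele and Ptgs2; 0.216% of all genes called) and 3 higher in YT-iKO (Sele, Ptgs2 and Ier3; 0.318%), and none lower; 14 of 15 had a positive log2 fold change in each genotype, beside 57.1% and 47.6% of all tested genes, with medians of 0.58 and 0.56 beside 0.07 and −0.02 over all genes. By limma-voom 11 and 10 of the 15 were positive, with medians of 0.24 and 0.11 beside 0.10 and 0.20 over all genes, and it called 5 of the list in CTRL and 4 in YT-iKO higher and 1 lower in each, beside 24.2% and 18.1% of all genes. Sele, the gene of the adhesion molecule E-selectin, rose from 2.64 ± 0.528 to 18 ± 12.7 CPM in CTRL (log2 fold change 2.77 ± 0.44) and from 5.46 ± 2.25 to 46.2 ± 25.7 CPM in YT-iKO (3.08 ± 0.43). Ptgs2, which encodes the prostaglandin synthase COX-2, rose from 32.7 ± 3.33 to 98.0 ± 49.3 CPM in CTRL and from 32.2 ± 6.88 to 115 ± 54.8 CPM in YT-iKO. Ier3, an immediate early gene, rose in YT-iKO from 26.2 ± 2.36 to 72.1 ± 38.0 CPM. In CTRL it was at 34.7 ± 5.94 and 81.9 ± 39.3 CPM (log2 fold change 1.24 ± 0.33, adjusted p of 0.237 by edgeR), and there it was called higher by DESeq2, by limma-voom and by edgeR on the scale of abundant genes.

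Among 12 other receptors that signal to NF-kB, edgeR called Tlr4, the lipopolysaccharide receptor, in CTRL, where 0.216% of all genes were called. Tlr4 rose there from 4.69 ± 0.510 to 11.3 ± 3.99 CPM (adjusted p of 0.0396, edgeR). In YT-iKO, where 0.318% of all genes were called, it was at 4.26 ± 0.761 and 8.92 ± 1.59 CPM with an adjusted p of 0.1003 (edgeR). limma-voom called 2 of these receptors higher and 4 lower in CTRL, and 1 higher and 2 lower in YT-iKO, beside 24.2% and 18.1% of all genes called. With factors from abundant genes 3 of them were called higher in CTRL (Tlr4, Tnfrsf10b and Il1r1) and 2 in YT-iKO (Il1r1 and Tlr4), beside 1.78% and 1.72% of all genes. The medians of the 12 were 0.11 and 0.39 beside 0.07 and −0.02 over all genes by edgeR on the scale of all tested genes, and −0.03 and −0.09 beside 0.10 and 0.20 by limma-voom, so their direction depended on the tool.

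Of 6 further subunits and IkB proteins and of 19 receptor-proximal proteins and kinases, none was called in either genotype by edgeR on the scale of all tested genes. That fit called 0.216% of all genes in CTRL and 0.318% in YT-iKO. In each genotype 2 of each list had an unadjusted p under 0.05, beside 3.5% of all genes in CTRL and 3.01% in YT-iKO. DESeq2 called Bcl3 in both genotypes, Traf1 in both and Map3k14 in YT-iKO, beside 1.11% of its genes in CTRL and 1.25% in YT-iKO. With factors from abundant genes edgeR called Bcl3 and Nfkbiz, atypical IkB proteins of the nucleus, and Traf1 and Map3k14 in both genotypes, all higher, beside 1.78% and 1.72% of all genes. Bcl3 there rose from 19.8 ± 0.688 to 39.7 ± 4.45 CPM in CTRL and from 24.0 ± 2.65 to 42.7 ± 6.37 CPM in YT-iKO; Traf1, an adaptor of TNFR2, rose from 9.94 ± 1.54 to 18.6 ± 0.763 CPM and from 13.1 ± 3.85 to 22.6 ± 4.67 CPM. Of the 6 subunits and IkB proteins limma-voom called Bcl3 higher in CTRL and none in YT-iKO; 3 of 6 were positive in each genotype, with medians of −0.07 and −0.02 beside 0.10 and 0.20 over all genes. By edgeR 6 and 5 of the 6 were positive, with medians of 0.20 and 0.41 beside 0.07 and −0.02, so the direction of this list depended on the tool. limma-voom called 8 of the 19 receptor-proximal genes lower and 2 higher in CTRL, and 6 lower and 1 higher in YT-iKO, beside 24.2% and 18.1% of all genes called in either direction. The number of the 19 with a positive log2 fold change was 7 in CTRL and 13 in YT-iKO by edgeR, and 3 and 2 by limma-voom.

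Of 10 ubiquitin editors and other brakes and of 10 ligands, none was called in either genotype by edgeR on either scale or by DESeq2. Of all genes edgeR called 0.216% in CTRL and 0.318% in YT-iKO on the scale of all tested genes. It called 1.78% and 1.72% on that of abundant genes, and DESeq2 called 1.11% and 1.25%. By edgeR none had an unadjusted p under 0.05 on the scale of all tested genes, beside 3.5% of all genes in CTRL and 3.01% in YT-iKO. On that of abundant genes 2 brakes in CTRL and 1 in YT-iKO did, beside 2340 and 2077 of the 31085 genes tested. limma-voom called 1 brake higher and 2 lower in CTRL and 2 lower in YT-iKO, and 2 ligands higher and 1 lower in CTRL and 1 higher in YT-iKO, again beside 24.2% and 18.1% of all genes. Tnf itself was near the bottom of the range, at 0.848 ± 0.148 CPM after sham and 1.22 ± 0.694 after MCAo in CTRL, and at 1.13 ± 0.558 and 1.28 ± 0.504 CPM in YT-iKO. Between genotypes, no gene of the 6 lists was called after sham or after MCAo by edgeR on either scale or by DESeq2. After sham, edgeR called 0.0965% of all genes, and 0.37% on the scale of abundant genes, and DESeq2 called 0.42%. After MCAo these shares were 0.0708%, 0.582% and 0.461%. limma-voom called no list gene after sham (0.46% of all genes) and 1, Sele, higher in YT-iKO after MCAo (0.827%).

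As a description, the pattern of each gene over the 16 libraries was set beside 9124 tested genes averaging 10 CPM or more, by Pearson's r of log2(CPM + 1). The receptors were nearest to each other among the 9 genes, with r = 0.955 on the scale of all tested genes and 0.932 on that of abundant genes, and Nfkb1 and Nfkb2 were nearest to each other on the first scale, with r = 0.941. Relb was nearest to Tnfrsf1b (0.928), Nfkbie to Tnfrsf1a (0.855), Birc3 to Nfkb1 (0.819), Nfkbia to Birc3 (0.780) and Tnfaip3 to Nfkb2 (0.729). On the scale of abundant genes the value of Tnfaip3 to its nearest of the 9 was 0.0252, and it was the gene furthest from 7 of the other 8. Outside the 9, on the scale of all tested genes, Tnfrsf1a was nearest to Ptgfrn (0.989) and Itm2c (0.987), Tnfrsf1b to Ggta1 (0.980) and Ralgds (0.974), Relb to Ptpn1 (0.971) and Flot1 (0.949), and Nfkbie to Tmem176b and Lcp1 (0.931 each). Nfkb1 was nearest to Cic (0.982) and Vamp8 (0.978), Nfkb2 to Smurf1 (0.974) and Flt4 (0.972), Birc3 to Ppp1r18 (0.967) and Pkig (0.965), Nfkbia to Mxd4 (0.961) and Rhob (0.950), and Tnfaip3 to Prkab1 (0.950) and Amz2 (0.949). All these values share the libraries, their depth and their scaling factors.

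Markers of other cell types were read beside the receptors. The summed markers of microglia and macrophages were 8.36 to 19.9 CPM in CTRL sham and 6.49 to 16.4 CPM in CTRL MCAo, and 7.47 to 28.1 and 6.67 to 24.6 CPM in YT-iKO. In the 4 MCAo libraries with the highest Tnfrsf1a (replicates 1 and 4 of CTRL, then of YT-iKO) they were at 6.49, 9.13, 11.0 and 6.67 CPM, and in the other 4 (replicates 2 and 3) at 12.9, 16.4, 24.6 and 12.8 CPM. On the scale of all tested genes the endothelial markers moved with Tnfrsf1a, at 20171, 18557, 16680 and 18961 CPM in the high libraries and 12713, 11919, 9396 and 12146 CPM in the low ones. The monocyte and neutrophil markers went the other way, at 4.63, 5.98, 6.92 and 1.25 CPM in the high libraries and 12.5, 16.6, 15.04 and 16.4 CPM in the low ones. The pericyte and smooth muscle markers were 670 to 787 CPM in CTRL sham and 474 to 1230 CPM in CTRL MCAo, and 516 to 741 and 432 to 1021 CPM in YT-iKO; of the 4 libraries with the highest Tnfrsf1a, CTRL MCAo replicate 1 was at 1230 and YT-iKO MCAo replicates 1 and 4 at 1021 and 929 CPM, whereas CTRL MCAo replicate 4 was at 650 CPM, below every CTRL sham library, and CTRL MCAo replicate 2, with low Tnfrsf1a, at 882 CPM. The 5 oligodendrocyte markers summed to 18.4 to 24.2 CPM in CTRL sham and 24.6 to 29.2 CPM in CTRL MCAo, without overlap. They overlapped in YT-iKO (21.6 to 29.9 and 23.3 to 35.6 CPM), and in CTRL on the scale of abundant genes. The astrocyte marker Gfap was at 4.04 to 6.11 and 8.77 to 13.3 CPM in CTRL, and 4.63 to 8.23 and 5.18 to 11.2 CPM in YT-iKO. The sum of 5 astrocyte markers overlapped in both genotypes. The part of these cell types in the result was not tested. The low replicates 2 and 3 of both MCAo groups had TMM factors between 1.14 and 1.40 and the high replicates 1 and 4 between 0.743 and 0.865. On the scale of abundant genes the endothelial markers ran only from 14820 to 16854 CPM in CTRL MCAo and from 12666 to 14967 CPM in YT-iKO MCAo. Tnfrsf1a there ran from 87.2 to 139 CPM and from 102 to 163 CPM. With receptor gene counts as a covariate the log2 fold change of Tnfrsf1a was 1.11 in CTRL (adjusted p of 1.5e-05, edgeR) and in YT-iKO 1.13 (adjusted p of 1.8e-05, edgeR); 3 of the 9 genes were called in CTRL (Nfkbie and both receptors), against 2.61% of all genes, and 2 in YT-iKO (both receptors), against 1.88%. In such bulk samples fewer cells of a type and less RNA per cell cannot be told apart.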

How the data were processed

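Sorted bECs of 16 mouse pools were sequenced after SMART-Seq amplification. The authors aligned reads with STAR 2.7.8a to GRCm38 and deposited raw counts per gene; the counting program and strand setting are not given in the sources used here. Counts were tested with edgeR 4.0.16 (quasi-likelihood, TMM factors, filterByExpr, 31085 genes, all 4 groups in 1 model, Benjamini-Hochberg adjustment over all tested genes, call at an adjusted p under 0.1). CPM used the same factors. Alternatives were DESeq2 1.42.0, limma-voom (limma 3.58.1), RLE factors, TMM factors computed only over abundant genes (10 CPM or more on average), other filters, a threshold of 0.05, 2-group fits, a replicate block, receptor gene counts as a covariate and each library left out. Exact permutation tests were two-sided on log2(CPM + 1), or on log2 of count ratios, with 70 assignments. Exon lengths and positions came from GENCODE M21 and promoters from RefSeq. The edgeR fit was tested on simulated data, and no result of that test is used here. The 9 genes and all lists were chosen with earlier results of these data known; all 9 are named, with the list genes called (at most 3 a direction) and the nearest genes by correlation. Precision is limited by 4 pools per group.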

Additional observations from a re-analysis of the deposited data

Results flagged for a closer look

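Tnfrsf1b in CTRL sham replicate 1 was at 50.1 CPM, below the other 3 libraries of its group, which lay between 55.6 and 56.4 CPM. Its gap to the nearest of them was 0.883 of the group's range, above Dixon's critical 95% value for 4 samples. The 9 genes gave 36 such groups of 4, and chance flags about 1 in 20.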

How the results depend on the processing

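By edgeR 0 of the 9 genes were called for MCAo in CTRL and 1 in YT-iKO; these became 3 and 4 with factors from abundant genes, 3 and 0 in fits of the 2 groups compared (2.52% and 0.0624% of all genes called), 3 and 2 with receptor gene counts as a covariate, and 4 and 6 without the 5 libraries of high TMM factor, a setting chosen after seeing the data that leaves the 2 higher MCAo libraries of each genotype, so its counts are a description only. DESeq2 called 1 and limma-voom 4 in CTRL; at an adjusted p under 0.05 none was called in YT-iKO. Leaving out 1 library at a time gave 0 to 1 in each genotype, with 0.0791% to 0.492% of all genes called in CTRL and 0.113% to 0.642% in YT-iKO. None of the 9 was called between genotypes or in the interaction under any setting run. Over all genes, edgeR called 67, 99, 30 and 22 in the 4 comparisons, DESeq2 203, 239, 65 and 78, limma-voom 7538, 5626, 143 and 257, and edgeR on the scale of abundant genes 554, 534, 115 and 181. Directions changed for several log2 fold changes; no value of the other sign was called. For Nfkbia these were 0.16 in CTRL without the 5 libraries and, in YT-iKO, −0.0147 with abundant genes, −0.47 by limma-voom and −0.0944 with the covariate. limma-voom gave −0.10 for Nfkb1 and −0.0072 for Nfkb2 in CTRL, and −0.11 for Nfkb1, −0.0395 for Nfkb2 and −0.27 for Birc3 in YT-iKO. It also gave −0.20 for Birc3 between genotypes after MCAo and −0.0265 for the Tnfrsf1a interaction; the Nfkbie interaction was 0.15 without the 5 libraries. Leaving out 1 library gave −0.30 to 0.0388 for Nfkbia in CTRL and −0.34 to 0.26 in YT-iKO, −0.20 to 0.0541 for Tnfaip3 in YT-iKO, −0.0209 to 0.26 and −0.0730 to 0.52 for Nfkbia between genotypes after sham and after MCAo, −0.0590 to 0.35 for Birc3 after MCAo, and −0.24 to 0.0719 for the Nfkbie interaction. Between genotypes after MCAo, Tnfrsf1b changed sign in 17 of 26 settings (−0.35 to 0.14) and Relb and Nfkb1 in 12 each; in the interaction Tnfrsf1b did in 13 of 25 (−0.32 to 0.19) and Nfkb2 in 8. For MCAo against sham 6 of the 9 genes kept their sign throughout in CTRL and 4 in YT-iKO. Between genotypes 5 did after sham and 3 after MCAo, and in the interaction 1 did. The cause of these changes was not tested. Same-numbered libraries had a median correlation of 0.259 over 24 pairs, of which 17 were above 0.1, against −0.128 over 72 differently numbered pairs, of which 27 were. These are correlations of deviations from group means, so the medians are not independent of each other. They hint at something shared by same-numbered libraries, but no label ties the numbers to a batch. The main test did not pair them, and whether such libraries shared a batch was not tested. With the replicate block 0 of the 9 were called in CTRL and 1 in YT-iKO (0.383% and 0.425% of all genes). The log2 fold change of Tnfrsf1a in CTRL was then 0.97, with an adjusted p of 0.106 (edgeR), just above the threshold. Nfkbie, at 76 to 207 counts a library, has the widest counting error of the 9 genes.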
